A study of Mus musculus with 14 samples.

Results

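Glutamate and GABA receptors carry most of the fast excitatory and inhibitory signalling of the brain, and their genes are used mainly in neurons. Ionotropic glutamate receptors are cation channels built from AMPA (Gria), kainate (Grik), NMDA (Grin) or delta (Grid) subunits, and metabotropic glutamate receptors (Grm) act through G proteins. GABA-A receptors are chloride channels assembled from alpha, beta, gamma, rho and other subunits (Gabra to Gabrr), and GABA-B receptors (Gabbr) act through G proteins. The 49 genes described here are the protein-coding genes of the GENCODE annotation (mouse genome mm10) whose symbols begin as these families do, out of 21938 protein-coding genes. They hold 47 receptor subunit genes, 26 for glutamate and 21 for GABA, and 2 genes that the symbols bring in without being subunits. These are Grina, named after the NMDA receptor but encoding another membrane protein, and Grid2ip, which encodes a protein of synapses.

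Chromatin immunoprecipitation followed by sequencing (ChIP-seq) had been carried out in 81K1 cells, a mouse embryonic stem cell line made from the OG2 line, in which doxycycline induces an shRNA against Smarcb1 from the Rosa26 locus. Control cells were untreated and kd cells had received 1 µg/ml doxycycline for 72 h, so that both conditions carried the shRNA cassette and all libraries came from 1 clone. Of the 14 samples, 10 were immunoprecipitated libraries with a deposited list of called regions, 1 for each of 5 antibodies and each condition, and 4 were inputs. With 1 library per antibody and condition there was no replicate spread, no test was made and no p-value computed between conditions, and doxycycline itself cannot be told apart from the loss of Smarcb1. Smarca4 is the ATPase of the BAF chromatin remodelling complex, to which Smarcb1 belongs. Ezh2 is the methyltransferase of the Polycomb complex PRC2, which writes H3K27me3, a mark of repressed genes. H3K4me3 marks promoters and H3K27ac marks active promoters and enhancers, and promoters with H3K4me3 and H3K27me3 together are known as bivalent, a state common at developmental genes of stem cells.

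Each gene region comprised the annotated gene and the 1 kb before its transcription start site (TSS), and a gene was called for an antibody when at least 1 bp of a listed region lay in it. A gene counted as called at the TSS when a region lay within 1 kb of its annotated gene start. Regions of control and kd that overlapped were shared, and all others belonged to control or to kd alone. The rank of a region is its place in its own list, in percent from the strongest region, with equal ranks for ties, since neither the MACS2 score of the Smarca4 and Ezh2 peaks nor the SICER p-value of the histone mark islands is scaled between libraries. The lists carry no read counts, so that the depth behind them is unknown, and a gene without a listed region was not called, which does not show that the mark was absent. Smarca4 and H3K27me3 had been immunoprecipitated by Active Motif and the other antibodies in the authors' laboratory, so that differences between these antibodies cannot be told apart from the laboratory.

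Receptor genes are long, and long gene regions are more often hit by a region. The gene regions of the 49 genes had a median length of 122 kb, with 4.14 kb in the shortest (Grina), against 18.4 kb over all protein-coding genes. Of the 49 genes, 16 were under 50 kb, 11 were between 50 and 200 kb and 22 were over 200 kb (44.9%), against 4.57% over 200 kb among all genes. Counts of called genes are therefore given beside the share of all protein-coding genes and beside that share weighted to the length classes of the 49 genes, and other values beside those of all genes over 200 kb. The receptor gene regions were also poor in G and C, with a median GC content of 40.8% against 45.2% over all genes, and the 22 longest lay at 39.2%. The genes were not all independent, since GABA receptor genes lie in clusters on chromosomes 4, 5, 7, 11 and X. The gene regions of Gabra4 and Gabrb1 overlap by 2196 bp, and these genes share their start region.

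The lists as a whole showed the marks of pluripotent cells. All 13 pluripotency genes examined, among them Pou5f1, Sox2 and Nanog, had H3K27ac and H3K4me3 in their gene region in both conditions, while the 8 neural progenitor genes had Ezh2 and H3K27me3 at the TSS in both and H3K27ac at none in control and at 1 after kd. Among markers of other cells, H3K27ac was called at the TSS of 1 of 8 neuronal genes in both conditions and of none of the 6 primitive endoderm, 4 trophoblast and 6 fibroblast genes. At the TSS of the 13 pluripotency genes it was called at 8 in control and 11 after kd. In whole gene regions it was called at 4 neuronal genes in control and 5 after kd. There it was also called at 1 primitive endoderm and 1 fibroblast gene after kd alone. The gene Smarcb1 carried H3K27ac and H3K4me3 at its TSS in both conditions, which does not check a knockdown by shRNA. Smarca4 peaks numbered 79014 in control and 72339 after kd, Ezh2 peaks 6708 and 5364, and islands of the 3 marks between 18320 and 51100. The lists also differed in how many regions lay on repeats, meaning that at least 50% of their bases are repeat-masked in the reference. This share was 9.52% in control and 19.8% after kd for Smarca4, and 45.9% and 3.24% for Ezh2. The values that touch the receptor genes are given beside each result, and their part in the differences was not tested.

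Most receptor genes carried H3K27me3 at their start in both conditions, most of these also carried H3K4me3, and hardly any carried H3K27ac. H3K27me3 was called at the TSS of 40 of the 49 genes in control (81.6%, 95% Wilson interval 68.6 to 90.0%, counting error only) and of 39 after kd (79.6%, 66.4 to 88.5%). Over all protein-coding genes the shares were 34.9% and 29.2%, and weighted to the same lengths 48.0% and 44.9%. H3K4me3 was called at the TSS of 28 and 29 receptor genes (57.1% and 59.2%), against 56.6% and 60.4% of all genes and 65.8% and 69.4% at the same lengths. Both marks were called together at 26 receptor genes in control (53.1%) and 27 after kd (55.1%), against 21.2% and 21.6% of all genes and 35.6% and 37.0% at the same lengths. H3K27ac was called at the TSS of Gabbr1 in both conditions and of Grik5 after kd, hence at 1 and 2 of 49 genes, against 16.0% and 30.9% of all genes and 13.6% and 26.5% at the same lengths.

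**Figure D1:**
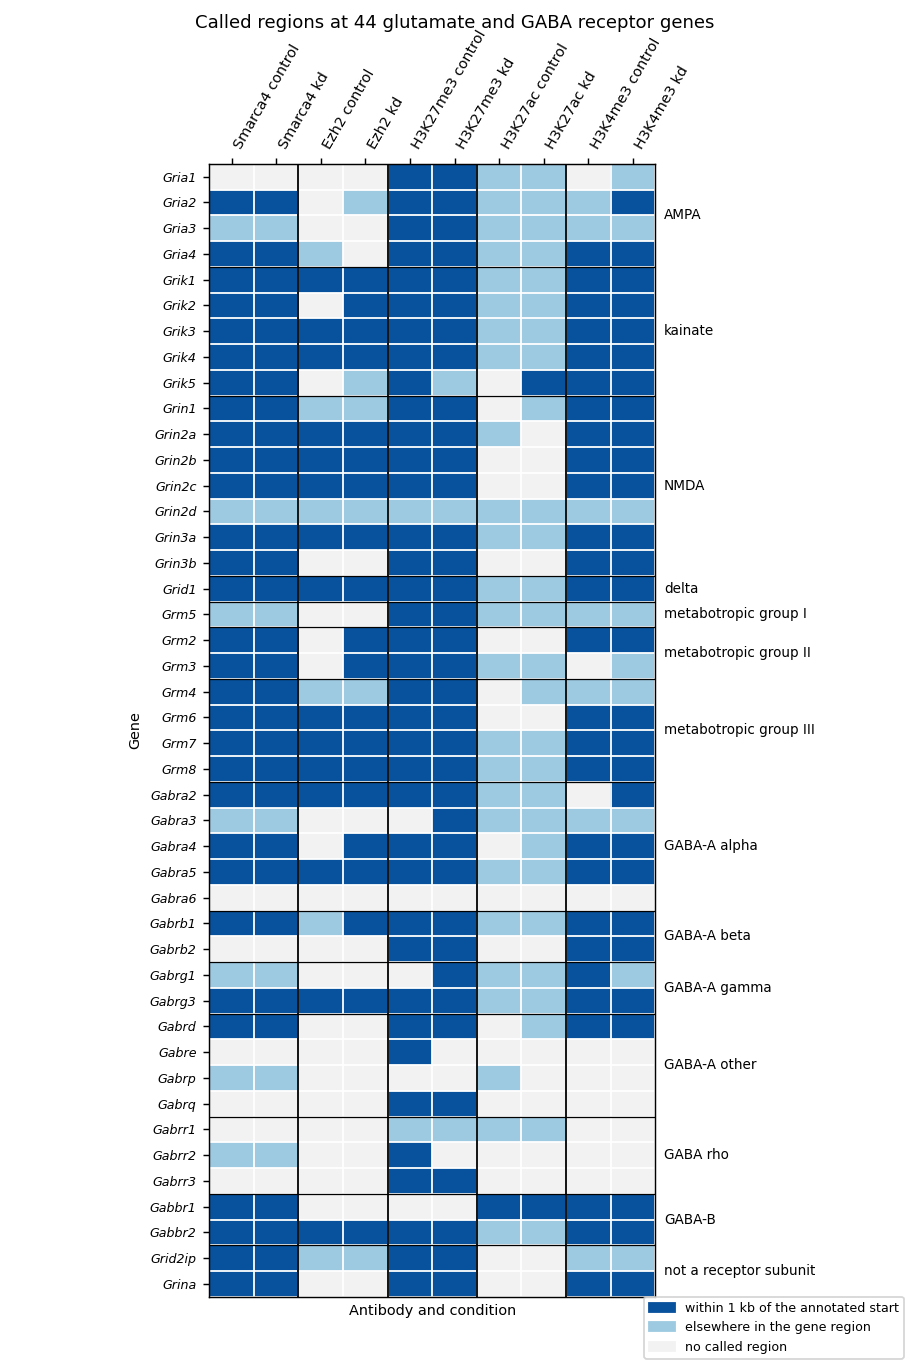
Called regions at 44 of the 49 genes (rows, grouped by receptor family) for each antibody in control and kd (columns, 1 library each). Dark blue marks a region within 1 kb of the annotated start, light blue a region elsewhere in the gene region and grey no called region. The H3K27me3 columns are dark for 37 of the genes shown in control and 36 after kd, while the H3K27ac columns are dark for 1 and 2.

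The base composition of the starts went with these marks. In the 300 bases from 250 upstream to 50 downstream of the TSS, the ratio of observed to expected CpG had a median of 0.68 in the 25 receptor genes with both marks in both conditions, of 0.402 in the 10 with H3K27me3 alone in both and of 0.183 in the 6 with neither mark. The same order held over all protein-coding genes, with 0.723, 0.287 and 0.152. The sequences with the highest and the lowest ratio among receptor genes with both marks and with neither mark are printed from the reference (GRCm38, the mm10 assembly) to show this range, with each CpG in capitals.
Grin1 (both marks, highest ratio, 1.2, chr2:25319138-25319437, minus strand): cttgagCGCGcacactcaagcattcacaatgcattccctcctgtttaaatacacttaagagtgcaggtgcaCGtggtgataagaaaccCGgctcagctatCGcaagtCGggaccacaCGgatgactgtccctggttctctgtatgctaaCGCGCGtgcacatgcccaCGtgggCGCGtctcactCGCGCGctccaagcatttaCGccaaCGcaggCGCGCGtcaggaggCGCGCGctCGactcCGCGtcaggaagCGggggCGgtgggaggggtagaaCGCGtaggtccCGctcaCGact
Grin3b (both marks, lowest ratio, 0.174, chr10:79970465-79970764, plus strand): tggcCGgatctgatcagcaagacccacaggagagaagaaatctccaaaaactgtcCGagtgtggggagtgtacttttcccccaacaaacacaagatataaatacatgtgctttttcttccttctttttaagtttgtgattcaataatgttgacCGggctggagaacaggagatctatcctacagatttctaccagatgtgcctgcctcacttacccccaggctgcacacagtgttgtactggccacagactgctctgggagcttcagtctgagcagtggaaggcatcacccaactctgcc
Gabrr1 (neither mark, highest ratio, 0.455, chr4:33132271-33132570, plus strand): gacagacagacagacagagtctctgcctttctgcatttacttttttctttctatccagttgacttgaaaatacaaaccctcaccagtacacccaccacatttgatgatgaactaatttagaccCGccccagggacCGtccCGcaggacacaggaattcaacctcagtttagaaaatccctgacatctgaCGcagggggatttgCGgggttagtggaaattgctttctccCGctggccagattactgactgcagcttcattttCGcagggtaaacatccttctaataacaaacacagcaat
Grin2d (neither mark, lowest ratio, 0.0812, chr7:45878329-45878628, minus strand): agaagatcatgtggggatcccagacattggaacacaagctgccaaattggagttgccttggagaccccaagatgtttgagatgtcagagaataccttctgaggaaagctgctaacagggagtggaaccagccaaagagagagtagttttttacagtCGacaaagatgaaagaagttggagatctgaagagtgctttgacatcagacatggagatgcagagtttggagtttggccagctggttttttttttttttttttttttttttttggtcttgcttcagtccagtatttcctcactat
Grin1 encodes the subunit that every NMDA receptor contains, and its start held 33 CpG in 300 bases. The start of Grin3b held 3 CpG although both marks were called there, with an H3K27me3 island of 15600 bp in control and 12200 bp after kd that covered the whole 7.48 kb gene region. Grin2d, an NMDA subunit, had 1 CpG at its annotated start and neither mark there, but both marks at other starts inside the gene. With the starts of all annotated transcripts counted, Grin2d, Grm4 and Grid2ip were among those that joined the genes with both marks, which then numbered 30 in control (61.2%) and 31 after kd (63.3%), against 42.8% and 43.4% at the same lengths. Gabrr1, a rho subunit gene, had 7 CpG and neither mark at any start.

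At 7 of the 49 genes (14.3%) the combination of the marks at the TSS differed between the conditions, which was near the general rate of 15.2% of all genes and 14.3% at the same lengths. Gabra2, an alpha subunit, and Gria2, the AMPA subunit that sets calcium permeability, had H3K27me3 in both conditions and gained a called H3K4me3 island after kd. The island of Gabra2 was 1400 bp wide with a p-value of 6.48e-79 (rank 44.8%), and that of Gria2 800 bp with 1.58e-22 (rank 73.3%). Gabra3 was called for H3K27me3 after kd alone, by an island of 2000 bp with a p-value of 6.99e-18. Gabre and Gabrr2 were called for it in control alone, by islands of 2200 bp (4.89e-34) and 4000 bp (1.81e-14). Gabrg1 had an H3K4me3 island of 2200 bp in control (7.79e-33, rank 63.2%) and an H3K27me3 island of 7600 bp after kd (1.85e-77, rank 21.4%). These islands were called in 1 library each, and their ranks lay between 21.4% and 81.5%.

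Grik5, a kainate subunit gene (chr7:25009849-25073346), went from both marks to H3K4me3 alone. Its start carried an H3K27me3 island of 5400 bp in control (p-value 2.08e-50, rank 35.8%) and none after kd. The H3K4me3 island there was 1600 bp wide in control (rank 51.8%) and 2200 bp after kd (rank 24.1%), and an H3K27ac island of 2200 bp was called after kd alone (6.65e-18, rank 35.3%). The Smarca4 peak at the start had a score of 421 in control, the highest at any receptor gene in that list (rank 1.5%), and 171 after kd (rank 15.9%). The islands at this start also lay within 1 kb of the start of Zfp574, so that they cannot be assigned to Grik5 alone.

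Gabbr1, a GABA-B receptor gene of 30.1 kb (chr17:37044966-37075067), stood apart from the other receptor genes by its marks. It had neither Ezh2 nor H3K27me3 in either condition, and an H3K4me3 island at the TSS of 11200 bp in control and 14000 bp after kd, both with a p-value given as 0. The H3K27ac island at its TSS was 8600 bp wide in control (5e-29, rank 16.1%) and 13200 bp after kd (5.6e-134, rank 0.497%), the strongest at any receptor gene after kd. The Smarca4 peak at its TSS had a score of 302 in control (rank 4.18%) and 481 after kd (rank 0.978%), the strongest Smarca4 peak at a receptor gene after kd. Its partner in the GABA-B receptor, Gabbr2, had H3K27me3 beside H3K4me3 at the TSS, and in both conditions the strongest Ezh2 peak of the receptor genes.

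Ezh2 was called at the start of more receptor genes after kd, as over all genes, and its peaks there were wider. The share called after kd alone was near that of genes of the same length. In control, 16 of the 49 genes had an Ezh2 peak at the TSS (32.7%, Wilson interval 21.2 to 46.6%) and after kd 22 had one (44.9%, 31.9 to 58.7%). The shares over all protein-coding genes were 7.13% and 12.6%, and 15.5% and 26.6% when weighted to the same lengths. No receptor gene had an Ezh2 peak at the TSS in control alone, against 0.283% of all genes and 0.302% at the same lengths. The 6 genes with a peak there after kd alone (12.2%), against 5.78% of all genes and 11.4% at the same lengths, included Gabra4 and Gabrb1 for GABA-A receptors, Grik2 for kainate receptors and Grm2 and Grm3 for the group II metabotropic receptors. Gabra4 and Gabrb1 share 1 peak. The gained peaks were weak for their list, with a score of 95 at Grik2 (rank 59.4%), 52 at Gabra4 and Gabrb1 (rank 81.8%), 43 at Grm3 (rank 89.9%) and 37 at Grm2 (rank 92.2%). All of the 6 starts had been called for H3K27me3 in control already.

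The 16 starts with Ezh2 in both conditions included those of Gabbr2, Gabra2, Gabra5, Gabrg3, Grid1, Grik1, Grik3, Grik4, Grin2a, Grin2b, Grin2c, Grin3a, Grm6, Grm7 and Grm8. At all of the 16, the peak was wider after kd, with a median of 773.5 bp in control and 1439.5 bp after kd. This was the general rule of the lists, as 97.7% of the starts called in both conditions over all genes had the wider peak after kd. The median rank of the 16 peaks was 19.4% in control and 24.1% after kd, against 28.7% and 20.8% over all genes. Of the 16, 10 ranked higher after kd (62.5%), against 67.2% over all genes, and the kd list was the shorter. At Gabbr2 the score was 444 in control (rank 2.12%) and 1121 after kd (rank 0.792%). At Grid1 it was 178 (rank 13.1%) and 875 (rank 2.64%), and at Grik3 128 (rank 21.4%) and 628 (rank 6.91%). Grm7 was among those that went the other way in rank, with 437 in control (rank 2.25%) and 186 after kd (rank 38.0%). Another was Gabra2, with ranks of 9.55% and 43.3%. Every receptor start with Ezh2 was also called for H3K27me3, 16 of 16 in control and 22 of 22 after kd, as were 98.3% and 98.1% of the Ezh2 starts over all genes.

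**Figure D2:**
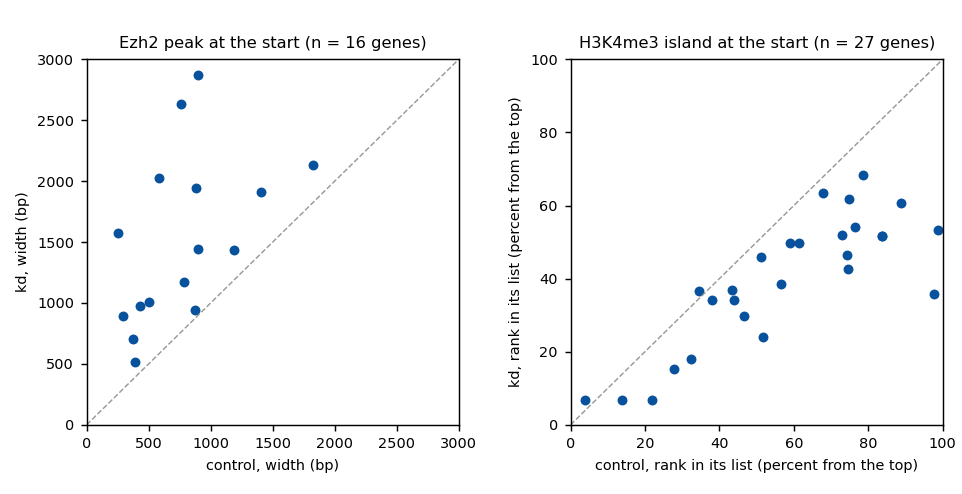
Left, width in bp of the Ezh2 peak at the start of the 16 receptor genes called in both conditions, kd against control. Right, rank in percent from the top of the H3K4me3 island at the start of the 27 genes called in both conditions, where a lower value is a stronger island. Each point is 1 gene in 1 library per condition, Gabra4 and Gabrb1 share a point, and the dashed line marks equal values. All 16 points lie above the line on the left, and 25 of 27 lie below it on the right, where the kd list is the longer.

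Over whole gene regions, Ezh2 was called at 24 receptor genes in control and 30 after kd, against 12.6% and 15.4% of all genes and 32.3% and 33.2% at the same lengths. These are 49.0% and 61.2% of the 49. The 7 genes called after kd alone (14.3%, against 5.96%, and 9.36% at the same lengths) included Gabra4, Grik2, Grm2 and Grm3, already named, with Gria2 and Grik5, and Gria4 was called in control alone (2.04%, against 3.19%, and 8.47% at the same lengths). The Ezh2 peaks in control alone lay away from the starts. Of 12 such peaks at receptor genes, 11 were repeat-masked, whereas none of the 14 peaks in kd alone was. This was general in the lists, with 1062 of 1277 and 21 of 2089 such peaks over all genes. Away from the annotated start, the strongest peak in control was that of Grm4 at an inner start (score 321, rank 4.44%), which had 556 after kd (rank 9.13%). Grin2d had 267 in control (rank 6.28%) and 558 after kd (rank 8.86%). The Ezh2 peaks of the 49 genes covered 24.69 kb in control and 38.93 kb after kd, a ratio of 1.58, against 1.76 over all genes and 1.5 over all genes over 200 kb.

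H3K27me3 was found at as many receptor genes after kd as in control, but it shifted between them. Its islands lay in 43 of the 49 gene regions in each condition (87.8%, Wilson interval 75.8 to 94.3%), against 42.4% and 35.6% of all genes and 60.7% and 57.0% at the same lengths. In control alone were Gabre and Gabrr2 (4.08%, against 9.74%, and 7.42% at the same lengths), and in kd alone Gabra3 and Gabrg1 (4.08%, against 2.95% and 3.75%). At the TSS, 3 genes were called in control alone (6.12%, against 8.15% and 6.24%) and 2 in kd alone (4.08%, against 2.39% and 3.11%). The covered length over the 49 gene regions was 685.7 kb in control and 691.8 kb after kd, a ratio of 1.01, while over all protein-coding genes the ratio was 0.713. This near balance depended on the genes and lists taken. The difference of 6.09 kb became 61.2 kb in lists of equal length and 64.5 kb without Grik3 and Grik4, choices made after the values were seen. The 22 receptor genes over 200 kb went from 357.2 to 440.8 kb (ratio 1.23), against 0.872 for all genes of that length. More base pairs were covered after kd in 26 of the 45 receptor genes with an island (57.8%), against 27.1% of all such genes. Among those over 200 kb the share was 77.3% of 22 receptor genes and 54.0% of all genes.

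The long metabotropic receptor genes held the largest gains. Grm7 (chr6:110644581-111567230) had 1 island in control, at the TSS, and 7 after kd, and its covered length went from 7.02 to 44.0 kb. Grm8 (chr6:27275119-28136178), which like Grm7 encodes a presynaptic group III receptor, had 1 island in control and 8 after kd, and 12.2 and 39.4 kb covered. Gabrb1 (chr5:71657113-72149037), a GABA-A beta subunit gene, had 2 and 6 islands, and 9.49 and 34.5 kb. Grm5, of group I, had 2 and 6 islands with 10.6 and 33.5 kb. The added islands lay inside the genes, between 40.6 and 435 kb from the TSS in Grm7 and between 68.7 and 474 kb in Grm8, and were 1800 to 7400 bp wide in these 2 genes. The island at the TSS also became wider, from 9000 to 19600 bp in Grm7, from 18000 to 26000 bp in Grm8 and from 5400 to 18800 bp in Grm5. In Grin3a, an NMDA subunit gene, 6.34 and 18.1 kb were covered.

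Losses were found in other receptor genes. Grm4 (chr17:27422387-27522403), the third presynaptic group III gene, had 78.6 kb covered in control, with an island of 60800 bp across its start, and 24.4 kb after kd, with an island of 22400 bp. The kainate subunit genes Grik4 (chr9:42518135-42945493) and Grik3 (chr4:125489700-125714173) went from 64.0 to 33.0 kb and from 46.9 to 19.5 kb, and from 9 to 5 and 7 to 3 islands. Grin2d went from 38.3 to 12.3 kb, Grid1 from 36.1 to 15.9 kb and Gabbr2 from 34.0 to 13.9 kb, where 6 of 7 control islands had no counterpart after kd. The TSS was called in both conditions at all of these except Grin2d, whose marks lie at inner starts. Kainate receptor genes together went from 152 to 90.6 kb. This sum rests on Grik3, Grik4 and Grik5 (18.9 to 5.95 kb), as Grik1 went from 12.1 to 14.1 kb and Grik2 from 9.97 to 18.2 kb. The group III genes also held both directions and went from 114 to 122 kb.

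**Figure D3:**
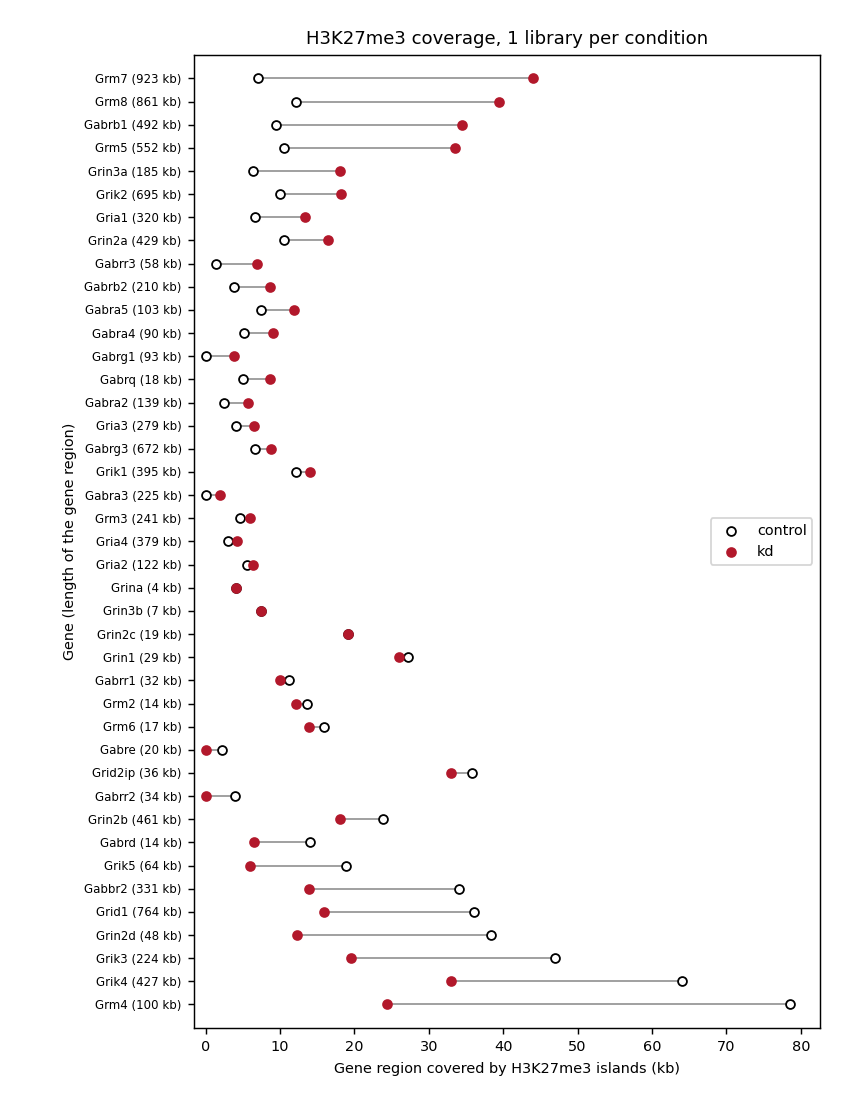
Length in kb covered by H3K27me3 islands in the gene regions of 41 of the 45 receptor genes with an island, in control (open points) and kd (red points), 1 library each, ordered by the difference. Grm7, at the top, went from 7.02 to 44.0 kb, and Grm4, at the bottom, from 78.6 to 24.4 kb.

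Genes that gained and genes that lost H3K27me3 differed in base composition. The 26 receptor genes with more covered after kd had a median GC content of the gene region of 38.5%, and the 16 with less covered one of 50.3%. The rank correlation (Spearman) between GC content and the difference in covered length was -0.649 over the 45 genes, and -0.507 over the 22 genes over 200 kb. The same relation was present over all genes, with -0.358 over 9944 genes and -0.601 over 855 genes over 200 kb. These are descriptions across genes of the same 2 libraries, and genes are not replicates. The islands themselves showed it as well. At receptor genes the 42 islands in kd alone had a median GC content of 40.2%, the 26 in control alone one of 51.1%, and over all genes the values were 41.9 and 49.8%. Base composition can also change how well a fragment is sequenced, and its part in the gains and losses was not tested. With the repeat-masked islands left out, which are 1 in control and 7 after kd, the covered length was 685.1 and 669.4 kb.

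**Figure D4:**
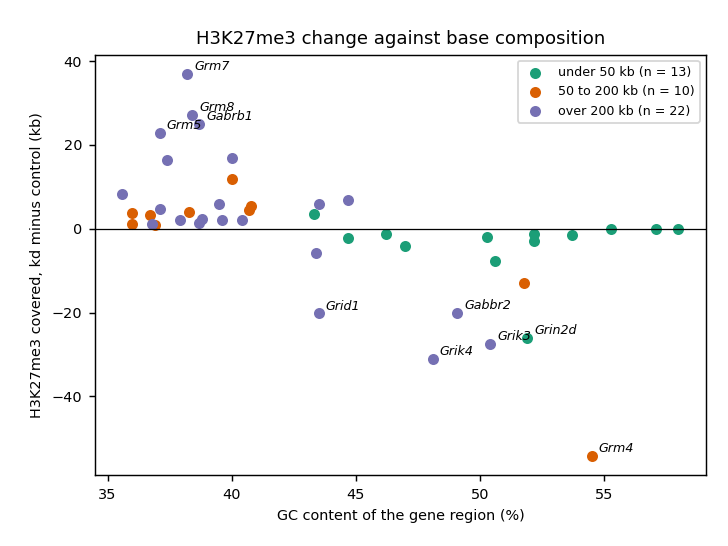
Difference between kd and control in the length covered by H3K27me3 islands (kb) against the GC content of the gene region (%), for 45 receptor genes coloured by length class, 1 library per condition. The gains, such as Grm7 at 38.2% GC, lie at low GC content, and the large losses, such as Grm4 at 54.5%, at higher GC content.

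The H3K27me3 islands at the starts were among the strong ones of both lists. The 37 receptor starts called in both conditions had a median rank of 12.7% in control and 8.76% after kd, and 25 of the 37 ranked higher after kd (67.6%), against 43.5% over all genes. Of the starts of genes over 200 kb, 70.0% of 20 at receptor genes and 56.7% of all ranked higher. Since the kd list was the shorter, ranks were also taken in lists of equal length, where 29 of 36 receptor starts (80.6%) ranked higher after kd, against 55.9% over all genes and 74.5% over all genes over 200 kb. Islands with a p-value given as 0 share the top rank of their list, 5.26% in control and 2.18% after kd, so that a start at 0 in both counted as higher after kd. Island widths at these starts had a median of 8800 bp in control and 12800 bp after kd. Over all genes the median was 11400 and 10200 bp, and over all genes over 200 kb it was 8500 and 10600 bp. Of the 37 islands, 19 were wider after kd. Among the receptor genes over 200 kb, 12 of 20 islands were wider after kd, against 63.3% over all genes of that length. In the whole lists, 2408 islands in control and 797 after kd had a p-value given as 0. Such islands were found at 18 receptor genes in control and at 9 after kd. The 9 were Grid1, Grid2ip, Grik3, Grin1, Grin2c, Grm4, Grm6, Grm7 and Grm8, and all of these but Grm7 were also among the 18 of control. The other 10 of control included Gabbr2, Gabra5, Gabrd, Grik5, Grin2a, Grin2d, Grin3a, Grin3b and Grm2.

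H3K4me3 islands at the starts of receptor genes had higher ranks in the kd list, which was also the longer list. The 27 starts called in both conditions had a median rank of 58.9% in control and 42.7% after kd, and 25 of the 27 (92.6%) ranked higher after kd, against 61.5% over all genes and 73.8% over all genes over 200 kb. A rank in percent rises when weak islands are added to a list, and the kd list held 33506 islands against 26130 in control. In lists of equal length, a choice made after the values were seen, the median ranks were 58.9% and 54.7% and 17 of the 27 starts (63.0%) ranked higher after kd. The share was then 45.2% over all genes, and among genes over 200 kb it was 53.3% of 15 receptor genes and 55.2% of all. In lists of equal length, 10 of the 27 starts ranked lower after kd. The exceptions in the lists as deposited were Gabbr1, where both islands had a p-value of 0, and Grm8. Widths had a median of 1800 bp in control and of 1600 bp after kd, and 15 of the 27 islands were narrower after kd (55.6%, against 60.8% over all genes and 63.3% over all genes over 200 kb) while 11 were wider. In the lists as deposited, the island at Grin2c, an NMDA subunit gene, went from rank 97.7% to 35.7%, and at Grm2 from 98.6% to 53.4%. Grid1 and Grik3 reached a p-value of 0 after kd, from ranks of 21.9% and 13.9%. None of the islands at the starts was repeat-masked. Called in control alone at the TSS was Gabrg1 (2.04%, against 0.779%, and 0.888% at the same lengths), and in kd alone were Gabra2 and Gria2 (4.08%, against 4.59% and 4.43%).

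Within the gene bodies, H3K4me3 covered more after kd, mostly on repeats. Over whole gene regions 37 receptor genes were called in control and 40 after kd, against 63.4% and 68.1% of all genes and 80.8% and 83.8% at the same lengths. With 75.5% and 81.6%, receptor genes lay above the former and below the latter. The 3 called after kd alone (6.12%, against 5.49%, and 3.69% at the same lengths) were Gabra2, Gria1 and Grm3, and none of the 49 was called in control alone, against 0.825% and 0.714%. Islands at receptor genes numbered 90 in control and 130 after kd, and covered 287.5 and 472.4 kb, a ratio of 1.64, against 1.09 over all genes and 1.46 over all genes over 200 kb. In lists of equal length, the 40 more islands after kd became 7 and the 185 kb more became 113 kb. More was covered after kd in 33 of 40 genes (82.5%), against 42.8% of all genes, and among those over 200 kb in 81.8% of receptor genes against 67.3% of all. Repeat-masked were 51 of the 90 and 73 of the 130 islands. Without these, the covered length was 82.33 and 110.0 kb (ratio 1.34), with more after kd in 23 of 36 genes (63.9%), against 0.954 and 36.9% over all genes. For genes over 200 kb the ratio without repeats was 1.08 at receptor genes and 0.978 over all. The largest gains included those of Grm7 (22.0 to 45.2 kb) and Grid1 (21.5 to 41.9 kb), where 8 of 9 and 7 of 8 islands after kd were repeat-masked. Losses were small, with the largest at Gabrg1 (9.4 to 7.0 kb), Gria4 (13.2 to 11.4 kb) and Gabbr2 (5.2 to 4.2 kb). Grin2d gained without repeats, from 3 to 6 islands and from 5.0 to 12.8 kb.

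The strongest H3K4me3 islands of the control list at receptor genes were those with a p-value of 0 at Gabbr1, Gabrg3 and Grid1. Those of Gabrg3 and Grid1 were 98.9% and 100% repeat-masked and lay 16.1 and 615 kb from the TSS. Islands with a p-value of 0 numbered 2000 in the whole control list and 4619 in the whole kd list. After kd, 14 receptor genes had such an island. In Gabra3, Gabrg1, Gabrg3, Gria3, Gria4, Grik1, Grm5 and Grm8 these islands were intronic and repeat-masked, and in Gabbr1, Grid1 and Grik3 one lay at the TSS. In Grin2d and Grm4 they lay at exons away from the annotated start and were not repeat-masked.

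H3K27ac at receptor genes lay almost entirely on repeats. Its islands were found in 29 gene regions in control and 32 after kd (59.2% and 65.3%), against 32.4% and 48.2% of all genes and 59.2% and 69.4% at the same lengths. Of the 107 islands in control 99 were repeat-masked (92.5%), and of the 132 after kd 116 were (87.9%), against 57.4% and 52.2% over all genes, and 83.8% and 81.6% over all genes over 200 kb. Gabra5 and Gria3 are examples of genes with repeat-masked islands alone. In control alone were Grin2a and Gabrp (4.08%, against 3.06%, and 3.32% at the same lengths), and in kd alone Gabra4, Gabrd, Grik5, Grin1 and Grm4 (10.2%, against 18.9% and 13.5%). At the TSS none was called in control alone, against 1.83% and 1.73%, and Grik5 in kd alone (2.04%, against 16.8% and 14.6%). In control the strongest island was at the end of Gabrp (p-value 1.07e-84, rank 0.622%), an island of 11000 bp that reached past the gene end and whose counterpart after kd lay outside the gene region. A repeat-masked island in Grik2 came next (rank 1.92%). After kd, Gria3 (rank 1.28%) and Gabra3 (rank 1.29%) followed Gabbr1, both with islands that were at least 99.2% repeat-masked.

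Outside repeats, the H3K27ac islands at receptor genes were few. There were 8 in control and 16 after kd, at Gabbr1, Gabbr2, Gabrp, Grik1, Grik3, Grik4 and Grin2d in control and, among others, at Gabbr1, Gabbr2, Gria2, Grid1, Grik2, Grik3, Grik5, Grin2d and Grm4 after kd. Over all genes such islands also became more numerous, from 5655 to 9767. Among genes over 200 kb they went from 4 to 6 at receptor genes and from 695 to 939 over all. Grm4 had 3 islands after kd alone, of which 2 were not repeat-masked, and the stronger, 19.9 kb from the TSS, had a p-value of 5.75e-33 (rank 14.3%). In Grin2d an island at an inner start went from rank 86.1% to 33.9%. In Gabbr2 an island at an exon near the gene end went from rank 91.5% to 19.1%. Higher ranks were general after kd, where the H3K27ac list was also the longer. Of the starts called in both conditions over all genes, 80.2% ranked higher after kd. Their median rank was 59.7% in control and 21.7% after kd.

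Smarca4 was found at most receptor genes in both conditions, near the shares of genes of the same length. It was called in 41 of the 49 gene regions in each condition (83.7%, Wilson interval 71.0 to 91.5%), against 70.3% and 71.7% of all genes and 84.3% and 85.3% at the same lengths. At the TSS it was called at 33 genes in each condition (67.3%), against 62.5% and 63.5% of all genes and 71.3% and 72.1% at the same lengths. In control alone 1 gene was called and in kd alone 1 (2.04% each), in gene regions and at the TSS. The corresponding shares over all genes were 2.45% in control alone and 3.85% in kd alone for gene regions, and 2.69% and 3.69% for the TSS. At the same lengths they were 1.93% and 2.94%, and 2.75% and 3.48%. The peaks at the TSS were narrower after kd, with a median width of 952.5 bp in control and 638 bp after kd over the 32 starts called in both, and 25 of the 32 were narrower (78.1%). Over all genes the widths were 897 and 850 bp with 54.7% narrower, and over all genes over 200 kb they were 939 and 811 bp with 61.0% narrower. The median rank was 22.1% and 21.9%. Grin1 (scores 381 and 356, ranks 2.06% and 3.1%) and Grik3 (377 and 140, ranks 2.15% and 20.6%) followed Grik5 in the control list. After kd, the peaks that followed Gabbr1 were repeat-masked and lay inside Grm8 (score 405) and Gabra3 (score 395).

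The lower number of Smarca4 peaks at receptor genes after kd rested on 2 kainate receptor genes, and was also lost when the lists were made equally long. Over all 49 genes there were 229 peaks in control and 206 after kd, or 1.83 and 1.65 per 100 kb, against 5.2 and 4.5 over all genes. For genes over 200 kb, it was 1.27 and 1.01 per 100 kb at receptor genes and 1.99 and 1.53 over all. In lists of equal length the difference of -23 peaks was 0, while that in covered length went from -26.8 to -19.6 kb. Grik3 held 55 of these in control and 26 after kd, with 36 in control alone and 3 in kd alone, and the covered length went from 35.8 to 11.3 kb. Grik4 held 23 and 3, with 19 in control alone, and went from 14.8 to 3.3 kb. Without Grik3 and Grik4, a choice made after the values were seen, the other 47 genes had 151 peaks in control and 177 after kd. The next largest loss of covered length was that of Grin3b (3.5 to 1.26 kb). With repeat-masked peaks left out, covered length was not lower at these genes alone. It went from 141.0 to 95.23 kb, a ratio of 0.675 against 0.757 over all genes. More was then covered after kd in 9 of 40 receptor genes (22.5%), against 39.3% of all genes. Among genes over 200 kb these shares were 21.1% and 22.2%. The Grik3 peaks in control alone lay between 2.58 and 162 kb from the TSS and had scores of up to 207.

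Gains of Smarca4 peaks had 2 forms. Grm4 went from 16 to 23 peaks and from 8.99 to 13.3 kb covered, with 12 peaks in kd alone, of which 1 was repeat-masked, and scores of up to 99. Grid2ip went from 8 to 13 peaks, with 5 in kd alone, none repeat-masked. In Gabrb1, Grm7 and Gabrg3, by contrast, the added peaks were on repeats. The 4 peaks in kd alone of Gabrb1, the 4 of Grm7 and the 2 of Gabrg3 were all repeat-masked. Gabrg3 went from 1 to 3 peaks and from 0.467 to 2.62 kb covered. Of the 64 receptor gene peaks in kd alone 26 were repeat-masked, and of the 98 in control alone 3. This direction was general in the lists, with 2379 of 12165 and 1084 of 21336 such peaks over all genes. For genes over 200 kb, 24 of 36 peaks in kd alone were repeat-masked at receptor genes and 865 of 2025 over all. Without repeat-masked peaks the receptor genes had 210 in control and 165 after kd, and 133 and 136 when Grik3 and Grik4 were also left out.

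**Figure D5:**
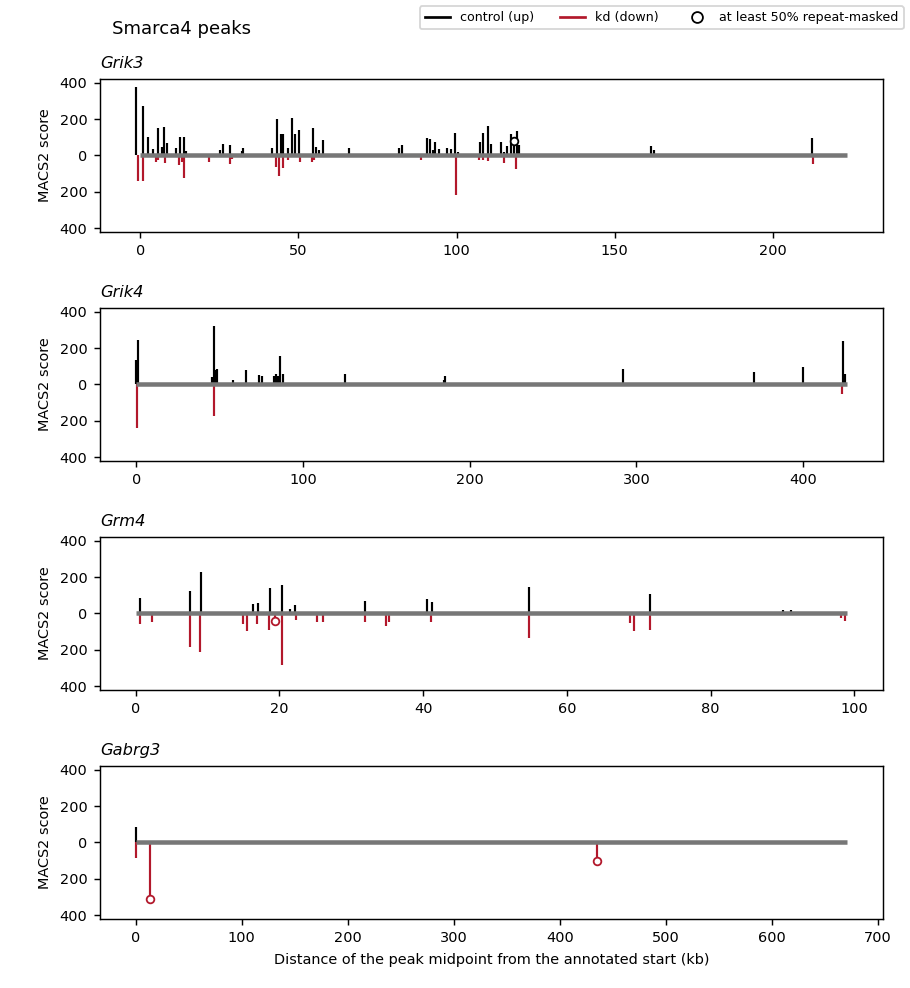
Smarca4 peaks along Grik3, Grik4, Grm4 and Gabrg3, by distance of the peak midpoint from the annotated start (kb) and MACS2 score, with control upwards and kd downwards, 1 library each. The grey line is the gene and open circles mark peaks that are at least 50% repeat-masked. Grik3 has 55 peaks in control and 26 after kd, Grik4 23 and 3, Grm4 16 and 23, and Gabrg3 1 and 3.

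The marks were also counted by receptor family, without a test between families. All 4 AMPA genes had H3K27me3 at the TSS in both conditions and none had Ezh2 there. Of the 7 NMDA genes 6 had H3K27me3, H3K4me3 and Smarca4 at the TSS in both conditions, Grin2d being the exception. Grid1, a delta subunit gene, had all of Smarca4, Ezh2, H3K27me3 and H3K4me3 at the TSS in both conditions, as did Grik1, Grik3 and Grik4 of the kainate, Grin2a, Grin2b, Grin2c and Grin3a of the NMDA and Grm6, Grm7 and Grm8 of the group III metabotropic genes. Among GABA receptor genes, these calls were found at Gabbr2, Gabra5 and Gabrg3. Gria1 was the one AMPA gene without Smarca4 in its gene region, while at the TSS Smarca4 was called at 2 of the 4 in each condition. Among GABA genes, Gabrd, found in receptors outside synapses, had H3K27me3 over its whole 14.1 kb gene region in control and over 6.51 kb after kd.

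The receptor genes with the fewest regions were GABA genes. Gabra6, a cerebellar alpha subunit of 15.6 kb, was the one gene without a region of any antibody in either condition. Gabre had the H3K27me3 island of control alone and no other region. Gabrq and Gabrr3 had H3K27me3 alone, and Gabrb2 H3K27me3 and H3K4me3. The 3 rho subunit genes Gabrr1, Gabrr2 and Gabrr3 had neither Ezh2 nor H3K4me3. Of the 2 genes that are not subunits, Grina had H3K27me3 over its 4.14 kb in both conditions, with an island, also at the start of Parp10, of rank 25.6% in control and 73.3% after kd, and Grid2ip had 35.8 and 33.0 kb of H3K27me3.

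Another 61 genes of glutamate and GABA signalling were examined, for transmitter synthesis and transport, auxiliary subunits and scaffolds, and most of these were also called for H3K27me3. H3K27me3 was called at the TSS of 50 in control and 46 after kd (82.0% and 75.4%), against 34.9% and 29.2% of all genes and 41.5% and 37.2% when weighted to the lengths of these 61. Ezh2 was called at 23 and 29 (37.7% and 47.5%), against 7.13% and 12.6%, and 11% and 19.6% at their lengths. H3K4me3 was called at 40 and 51 (65.6% and 83.6%), against 56.6% and 60.4%, and 62.9% and 66.6% at their lengths. Smarca4 was called at 53 and 50 (86.9% and 82.0%), against 62.5% and 63.5%, and 68.7% and 69.4% at their lengths. H3K27ac was called at 4 and 15 (6.56% and 24.6%), against 16.0% and 30.9%, and 15.9% and 30.1% at their lengths. For H3K4me3, 8 of the 61 gene regions were called after kd alone (13.1%, against 5.49%, and 4.67% at their lengths) and none in control alone (against 0.825%).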

How the data were processed

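The lists of called regions were analysed as deposited for 10 libraries, 1 per antibody and condition, while the 4 inputs were not used here. According to the labels and the methods, reads were trimmed by the authors (Trim Galore), mapped to mm10 with Bowtie2 on Galaxy and reduced to unique alignments with few mismatches (SAMtools 1.9). The deposited MACS2 score ranks the Smarca4 and Ezh2 peaks called at default settings. The deposited SICER p-value belongs to islands of the histone marks, called by the authors with windows of 200 bp, gaps of 600 bp and p-value limits of 1e-05 (H3K27ac) and 1e-10 (H3K27me3 and H3K4me3). The background of the calls is named input in the methods and IgG in the labels, and the versions of the callers are not given in the sources used here. Such lists hold no read counts, so that stronger libraries can list more and wider regions, and depth cannot be corrected for.

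Gene regions were taken from GENCODE M21, and a region was assigned to each gene it overlapped by at least 1 bp. Overlaps were computed in Python 3.11.15 (numpy 2.4.6, pandas 2.3.3), tested on simulated regions and checked with bedtools 2.31.1, and figures were drawn with matplotlib 3.10.9. Wilson intervals (scipy 1.17.1) cover counting error only. Shares at the same lengths weight all protein-coding genes to the 3 length classes of the 49 genes (under 50 kb, 50 to 200 kb, over 200 kb). GC content and repeats were read from the soft-masked GRCm38 sequence. The results of 5 of the 49 genes are not reported here singly, and counts and sums include them. Values were given in full for the other genes called at the TSS in 1 condition alone (Ezh2 and the marks), the 3 genes of strongest rank per list, the 3 with the largest gain and loss in covered length (H3K27me3, H3K4me3 and Smarca4) and genes without any region. Others were chosen after their values were seen, as examples of their families. The genes and the lists (61 genes of the pathway, and markers of pluripotent, neural progenitor, neuronal, primitive endoderm, trophoblast and fibroblast cells) were chosen with earlier results of these data known.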

Additional observations from a re-analysis of the deposited data

How the results depend on the processing

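The numbers of receptor genes called in 1 condition alone were recounted under 9 alternatives, and of 90 values 57 stayed within 1.5 times the first count and 33 moved. Counting genes with any region in 1 condition alone gave, for control and kd, 21 and 25 genes for Smarca4, 10 and 13 for Ezh2, 10 and 17 for H3K27me3, 11 and 25 for H3K27ac and 2 and 24 for H3K4me3. This count was not made over all genes, and long genes hold more regions, so it cannot be read as particular to receptor genes. The 1 kb TSS window gave 0 in control for Ezh2 and H3K27ac, 1 in control for H3K4me3 and 1 in kd for H3K27ac. The windows at all transcript starts gave 2 in control for Smarca4, 0 for Ezh2, 0 and 3 for H3K27ac and 1 in control for H3K4me3. Stricter thresholds (a score of 50, or p-values of 1e-10 for H3K27ac and 1e-20 for the other marks) gave 3 and 2 for Smarca4 and 4 and 8 for H3K27ac. Lists cut to equal length gave 1 in control for H3K27me3, 4 and 3 for H3K27ac and 1 in kd for H3K4me3. Without repeat-masked regions there were in control 2 for Smarca4, 0 for Ezh2 and 1 for H3K4me3. Without regions at other starts there were in control 2 for Ezh2 and 4 for H3K27me3, and by midpoints 1 in control for H3K27ac.

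The differences in number and covered length (kd minus control) were recomputed under alternatives chosen after seeing the data, and 8 of 70 turned. For Smarca4 the difference of -23 peaks became 0 with equal lists, 3 at the TSS and 26 without Grik3 and Grik4, where covered length went from -26.8 to 9.11 kb. For Ezh2, -2 peaks became 2 at the TSS, 2 with equal lists and 9 without repeat-masked peaks. The H3K27me3 difference of 6.09 kb became -15.7 kb without repeat-masked islands and 61.2 kb with equal lists. It became 64.5 kb without Grik3 and Grik4 and 33.1 kb without regions at other starts. The 46.7 kb of H3K27ac became -0.207 kb with equal lists. The 185 kb and 40 islands of H3K4me3 became 113 kb and 7 with equal lists, and 27.6 kb and 18 without repeat-masked islands. With equal lists, 17 in place of 25 starts ranked higher after kd for H3K4me3, and 29 in place of 25 for H3K27me3. The cause was not tested. Leaving out a replicate was not possible with 1 library per antibody and condition. No paired analysis was possible because no group holds replicates and no test was made.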
